A study of Mus musculus with 24 samples.

Results

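Cathepsins, the Lamp membrane glycoproteins and the subunits of the vacuolar proton pump were followed in the right ventricle of mice after PSPI, an operation that overloads this chamber by pressure and by volume, and after sham surgery. All array probes named Cts plus 1 letter, Lamp plus a digit, or Atp6v plus a suffix were taken, which gave 48 probes for 43 genes. Probes had to be well above background throughout at least 1 group of arrays; 32 probes for 29 genes were kept, out of 21061 kept probes among 55681 in all. The kept probes were 11 of 20 for cathepsins, 4 of 4 for Lamp, 9 of 14 for the V1 sector of the pump and 8 of 10 for its V0 sector.

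The 24 samples were 5 taken at month 1 after PSPI, 5 at month 2, 4 at month 3, and 10 shams whose month the titles do not give. The labels give all of them the same strain entry, M/FVB/10-12, and the same tissue, heart right ventricle, and name no allele or drug. Separate animals are not stated, and the p-values therefore reflect sample-to-sample spread that could be technical. Each value is the log2 signal of a probe minus the 75th percentile of its array, so levels are compared for a probe across arrays and not between probes. In whole tissue, fewer cells of a type and less RNA per cell cannot be told apart.

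The lysosome breaks down proteins, lipids and worn organelles that reach it by endocytosis and autophagy. Cathepsins are its main proteases, and they need the acid interior that the vacuolar proton pump maintains: the V1 sector in the cytosol splits ATP, and the V0 sector in the membrane carries the protons. Lamp proteins line the membrane, and the transcription factor TFEB and its relatives switch many of these genes on through an E-box motif. In the heart, lysosomes serve the turnover of mitochondria and contractile proteins in cardiomyocytes and are abundant in macrophages.

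The promoters of 4 of these genes are shown because they hold that E-box, and Ctsd and Atp6v0b were among the genes called higher over all months. Each runs from 250 bases before to 50 bases after the start of the gene, 5′ to 3′, from RefSeq on GRCm38.p6, and capitals mark the core CACGTG or, where present, the longer TCACGTGA that contains it.
Ctsd, chr7:142387778-142388077, minus strand: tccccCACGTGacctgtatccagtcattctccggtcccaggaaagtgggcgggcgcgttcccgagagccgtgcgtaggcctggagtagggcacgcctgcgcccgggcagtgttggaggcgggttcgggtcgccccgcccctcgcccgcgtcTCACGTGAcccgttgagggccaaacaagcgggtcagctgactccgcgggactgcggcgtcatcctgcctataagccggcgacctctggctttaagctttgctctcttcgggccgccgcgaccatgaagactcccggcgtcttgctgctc
Atp6v0b, chr4:117887280-117887579, minus strand: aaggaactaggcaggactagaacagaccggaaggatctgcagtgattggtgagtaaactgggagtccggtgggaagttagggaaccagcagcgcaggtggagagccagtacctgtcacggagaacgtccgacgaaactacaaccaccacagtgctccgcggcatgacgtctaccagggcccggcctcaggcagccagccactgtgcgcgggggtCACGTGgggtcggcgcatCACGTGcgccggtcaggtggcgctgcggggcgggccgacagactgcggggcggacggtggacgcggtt
Lamp1, chr8:13158911-13159210, plus strand: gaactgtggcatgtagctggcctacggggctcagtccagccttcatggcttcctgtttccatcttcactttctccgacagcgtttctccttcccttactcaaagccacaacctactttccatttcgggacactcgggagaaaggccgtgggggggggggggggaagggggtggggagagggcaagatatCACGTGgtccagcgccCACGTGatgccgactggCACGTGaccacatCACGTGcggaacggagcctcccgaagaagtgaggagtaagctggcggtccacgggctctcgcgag
Ctsa, chr2:164833523-164833822, plus strand: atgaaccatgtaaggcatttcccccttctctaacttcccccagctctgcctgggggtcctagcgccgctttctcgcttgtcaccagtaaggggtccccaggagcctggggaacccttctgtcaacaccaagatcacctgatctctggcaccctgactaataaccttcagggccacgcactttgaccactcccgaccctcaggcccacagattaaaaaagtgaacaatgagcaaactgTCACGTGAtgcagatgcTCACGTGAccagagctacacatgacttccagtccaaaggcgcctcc
Ctsd holds 2 cores, starting at -245 and -98 from the start site, and the core at -98 lies within the longer motif. Atp6v0b holds 2 cores at -36 and -18, Lamp1 holds 4 cores, and the Ctsa promoter shown holds the longer motif at 2 places around its start site. A further promoter listed for Ctsa, chr2:164832622-164832921, holds neither motif. Both motifs read the same on both strands. Promoters were listed for 22 of the 29 genes kept, and the core was in 9 of the 22 (40.9%), against 8.09% of all 27025 genes listed. Without the filter on dim probes it was in 9 of 33 (27.3%), which is the like comparison, since the genes listed were not filtered. The longer motif was in 5 of the 22 (22.7%), those of Atp6v0d1, Atp6v0e, Atp6v1a, Ctsa and Ctsd, against 1.12% of all genes listed, and without that filter in 5 of 33 (15.2%). The core was in 2 of 6 genes called over all months (33.3%) and in 7 of 16 that were not (43.8%). A match is a description of the letters and shows no binding.

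Over the 3 months together, 7 of the 32 probes were called higher after PSPI than in sham and 1 lower (limma, Benjamini-Hochberg adjusted p under 0.05 over all probes tested). The background was 12.6% of all probes called higher, 10.9% lower and 23.4% either way, and 8 of 32 members, 25%, is close to that last share. The 7 higher were Ctsd probes A and B, Ctsb, Ctsz, Atp6v0b, Atp6v0a1 and Atp6v0c, and the lower was Lamp3. The median log2 change was 0.10 over the members and 0.02 over all probes. With the slide as a fixed block 4 members were called higher (Ctsz, Ctsd probe A, Atp6v0b and Ctsa probe A) and 0 lower, against 7.49% and 6.93% of all probes. On slide 3 alone, the only slide with several shams and PSPI samples of every month, 0 were called. On slide 3 alone 0.195% of all probes were called higher and 0.00475% lower, so that 0 says nothing about the members.

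Some arrays of 1 group lay unusually close together: Sham 3, 4 and 10, Sham 1 and 5, Sham 7 and 9, and month 3 samples 2 and 3, at a root mean square distance of 0.16 to 0.35 over the 50 most variable probes, against at least 0.57 for the other pairs. The labels name no repeated sample. The setting called close arrays averaged merged the sets above. It also merged month 1 samples 1 and 5 and month 2 samples 1 and 5, at distances of 3.03 and 0.80. There 2 members were called higher over all months and 0 lower, against 4.68% and 2.27% of all probes. With only the sets above averaged, a setting chosen after seeing the data, 4 were higher and 0 lower, against 6.39% and 3.68%. Myh7, a cardiomyocyte myosin that is raised in many overloaded hearts, was 2.03 to 5.76 in month 1, 4.67 to 5.63 in month 2 and 5.01 to 5.62 in month 3, against 1.62 to 2.16 on Sham 1 to 5 and 10 and 4.73 to 5.92 on Sham 6 to 9, so the shams fell into separate ranges. The defining cardiomyocyte markers were detected, with all 11 listed ventricular markers kept, and all 5 lung epithelium markers failed the filter. Atrial markers varied widely between arrays. The mean level of the 5 kept, centred on each gene, was -4.06 to 4.91 in sham and -1.99 to 3.73 in month 1. It was -0.98 to 2.42 in month 2 and -2.89 to -1.61 in month 3. Some members split along the same sets of shams. On Sham 1 to 5 and 10 Ctsh was 0.72 to 1.38, Ctsk -2.58 to -1.38 and Ctsd probe B -1.02 to -0.69. On Sham 6 to 9 they were -0.10 to 0.35, -1.26 to -0.72 and -0.54 to 0.12. In month 1 Ctsh was 1.01 to 1.25 on samples 2 to 4 and 0.17 and 0.29 on samples 1 and 5. Others, such as Ctsb and Atp6v0b, overlapped between these sets of shams. The part of the sham split and of the atrial signal in the member changes was not tested.

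**Figure D1:**
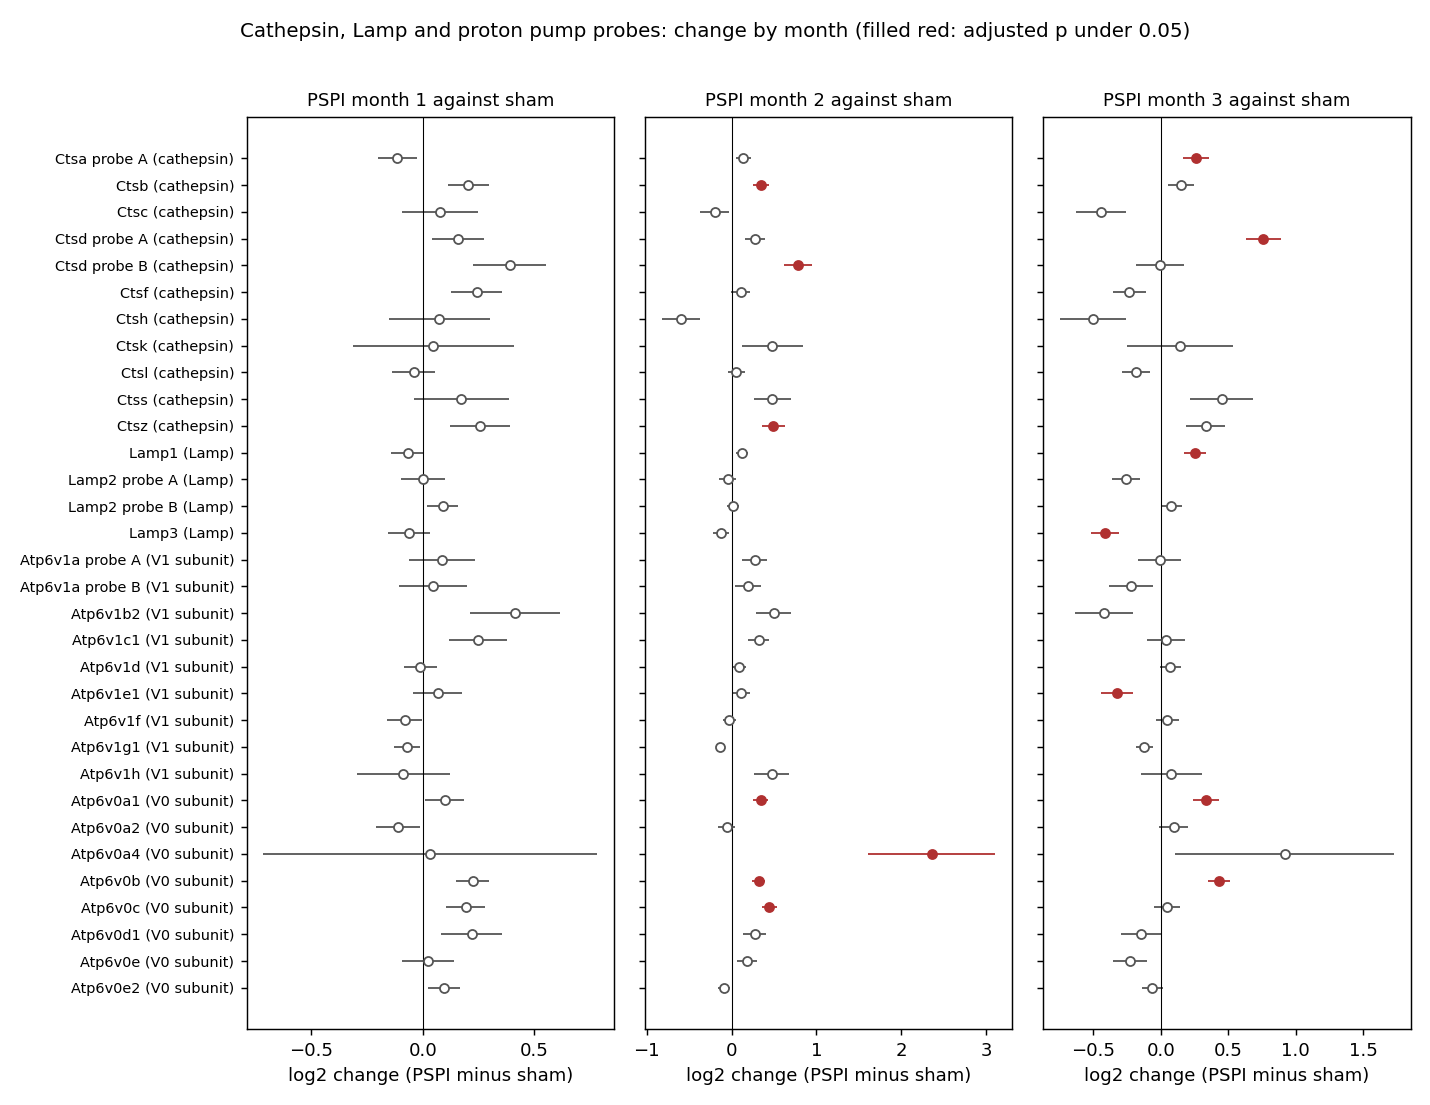
Log2 change of each of the 32 kept probes (PSPI minus sham, points) with its standard error (lines), grouped by role, in months 1, 2 and 3; the horizontal scales differ between panels. Filled red points have an adjusted p under 0.05: 0 probes in month 1, 7 in month 2 and 7 in month 3.

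Cathepsin D (Ctsd), an aspartic protease that starts the breakdown of many lysosomal proteins, was read by 2 probes. Probe A lies at chr7:149561962-149562021 and probe B at chr7:149566847-149568505 (mm9, minus strand). Probe B has 60 bases but spans 1659 bases of the genome, so it crosses at least 1 gap in the genome. Its sequence is shown because the probes disagreed.
Ctsd probe B: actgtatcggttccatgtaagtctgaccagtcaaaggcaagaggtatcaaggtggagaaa
Probe A was 3.27 to 3.64 in month 1 (median 3.62), 3.48 to 3.78 in month 2 (median 3.67) and 3.87, 4.28, 4.35 and 4.05 in month 3, against 2.78 to 3.65 in sham (median 3.40). All 4 month 3 arrays lay above every sham, while months 1 and 2 overlapped with sham. The log2 change was 0.40 ± 0.09 (SE) over all months (adjusted p = 0.0034) and 0.76 ± 0.13 in month 3 (1.69-fold, adjusted p = 9.27e-05). Without month 3 the all-months change of Ctsd probe A was 0.22 (adjusted p = 0.147). The month 3 value kept its call under all 16 alternatives and when any 1 array was left out (0.60 to 0.95, adjusted p on slide 3 alone 0.0405).

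Probe B gave another course. It was -0.32 to -0.14 in month 1 (median -0.19), 0.03 to 0.27 in month 2 (median 0.23) and -0.00, -0.78, -0.47 and -1.23 in month 3, against -1.02 to 0.12 in sham (median -0.70). Month 2 lay at the top of the sham range and month 3 was spread across it. The log2 change was 0.39 ± 0.12 over all months (adjusted p = 0.0263, lost without Sham 1 or Sham 5), 0.78 ± 0.16 in month 2 (1.72-fold, adjusted p = 0.00603) and -0.01 ± 0.18 in month 3 (adjusted p = 0.981), and month 3 was lower than month 2 by -0.79 ± 0.20 (adjusted p = 0.00656). Probe A differed between the same months in the other direction, by 0.48 ± 0.14 (adjusted p = 0.0194), a call lost without month 2 sample 2, month 3 sample 2 or month 3 sample 3. With the slide as a fixed block the month 2 value of Ctsd probe B was 0.64 (adjusted p = 0.0952). Which transcripts each probe detects was not tested.

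**Figure D2:**
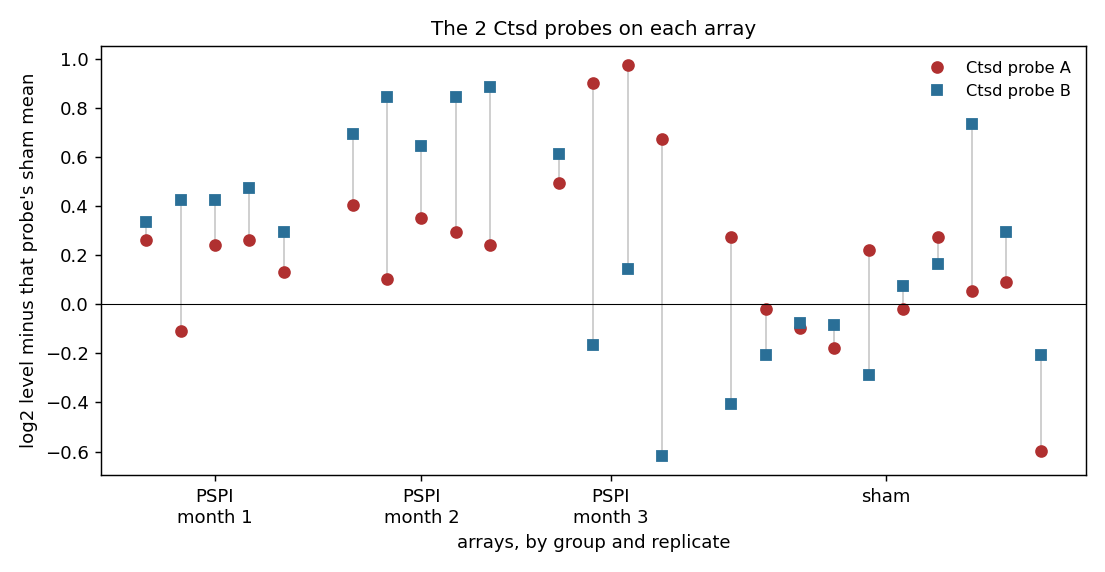
Log2 level of Ctsd probe A (circles) and Ctsd probe B (squares) on each array minus that probe's own sham mean, with arrays ordered by group and replicate and a line joining both probes of an array. In month 3, probe A is above its sham mean on all 4 arrays, while probe B is above it on 2 and below it on 2.

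Cathepsin B (Ctsb), a cysteine protease of broad specificity, was 2.97 to 3.33 in month 1 (median 3.14), 3.14 to 3.51 in month 2 (median 3.26) and 3.50, 2.82, 2.92 and 3.14 in month 3, against 2.85 to 3.05 in sham (median 2.94). All 5 month 2 arrays lay above every sham. The change was 0.23 ± 0.07 over all months (adjusted p = 0.0184) and 0.35 ± 0.09 in month 2 (adjusted p = 0.0176), the second lost without month 2 sample 1 or 4. With the slide as a fixed block the change of Ctsb was 0.12 over all months (adjusted p = 0.322) and 0.16 in month 2 (adjusted p = 0.358). Its all-months call held in 8 of 17 other settings and was lost with the 75th percentile over all probes and with quantile normalization.

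Cathepsin Z (Ctsz), a carboxypeptidase prominent in macrophages, was -0.33 to 0.49 in month 1 (median -0.20), 0.10 to 0.42 in month 2 (median 0.14) and 0.33, -0.24, -0.19 and 0.42 in month 3, against -0.53 to -0.03 in sham (median -0.17). Month 2 again lay wholly above sham, while months 1 and 3 held arrays above the sham range and arrays within it. The change was 0.36 ± 0.10 over all months (adjusted p = 0.0141) and 0.49 ± 0.13 in month 2 (adjusted p = 0.0208), the second lost without month 2 sample 1 or 5. With the slide as a fixed block the all-months change of Ctsz was larger, 0.58 (adjusted p = 0.0131). The all-months and month 2 calls of Ctsz were lost without the filter on dim probes, on slide 3 alone and with close arrays averaged. Ctsb and Ctsz were the 2 members with every month 2 array above every sham, against 1.52% of all probes, and 0 members lay wholly below, against 1.6%.

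Cathepsin A (Ctsa, probe A), a carboxypeptidase that also protects other lysosomal enzymes, was 2.51, 2.53, 2.54 and 2.82 in month 3, against 2.23 to 2.52 in sham. The change in month 3 was 0.26 ± 0.09 (adjusted p = 0.0328), and without month 3 sample 4 or sample 3 the call was lost. The call held in 6 of 16 other settings, and the value of Ctsa probe A was 0.10 (adjusted p = 0.395) with the 75th percentile over all probes. The remaining cathepsins were not called against sham in any month. Ctsl, a cysteine protease needed for normal heart muscle in mice, changed by -0.06 ± 0.07 over all months, and Ctsk, the collagen-cleaving cathepsin of osteoclasts, by 0.22 ± 0.27. Ctss, which trims antigen in macrophages and dendritic cells, changed by 0.37 ± 0.16 (adjusted p = 0.103), and Ctsh, an aminopeptidase, by -0.34 ± 0.17 (adjusted p = 0.151). Levels of Ctsh and Ctsk differed between the sets of shams named above. Ctsc, which activates granule proteases of white blood cells, changed by -0.19 ± 0.13 (adjusted p = 0.298). Ctsf, another cysteine protease, was not called against sham, but month 3 was lower than month 1 by -0.48 ± 0.14 (adjusted p = 0.0129), a call lost without month 3 sample 4. Cathepsins not kept were Ctse, Ctsg, Ctsj, Ctsm, Ctso, Ctsq, Ctsr, Ctsw and Ctsa probe B.

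Of the membrane glycoproteins, Lamp1, an abundant component of the lysosomal membrane, was 4.03, 4.14, 4.16 and 4.02 in month 3, against 3.67 to 4.02 in sham (median 3.83). The lowest month 3 array and the highest sham were equal at this precision, although none of the 4 fell below. Without month 3 sample 2 or 3 the call against sham was lost. The change in month 3 was 0.25 ± 0.08 (adjusted p = 0.014), but 0.09 (adjusted p = 0.424) for Lamp1 when arrays were scaled on the 75th percentile over all probes. Lamp2, whose loss causes a cardiomyopathy in humans, was not called by either probe, at -0.10 ± 0.07 for Lamp2 probe A and 0.06 ± 0.05 for Lamp2 probe B over all months. Lamp3, a glycoprotein known from dendritic cells and lung, was 0.03, -0.53, -0.45 and -0.06 in month 3, against -0.10 to 0.33 in sham. Its change in month 3 was -0.41 ± 0.10 (adjusted p = 0.00323), and over all months -0.20 ± 0.07 (adjusted p = 0.0479), a call lost when any 1 of 18 arrays was left out and with the slide as a fixed block (Lamp3 -0.22, adjusted p = 0.177). Its 2 lowest month 3 arrays, samples 2 and 3, are the close pair named above. With close arrays averaged the month 3 change of Lamp3 was -0.34 (adjusted p = 0.0663), and the call was also lost on slide 3 alone and with a replicate block. Of 8 dendritic cell markers, 0 were kept.

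**Figure D3:**
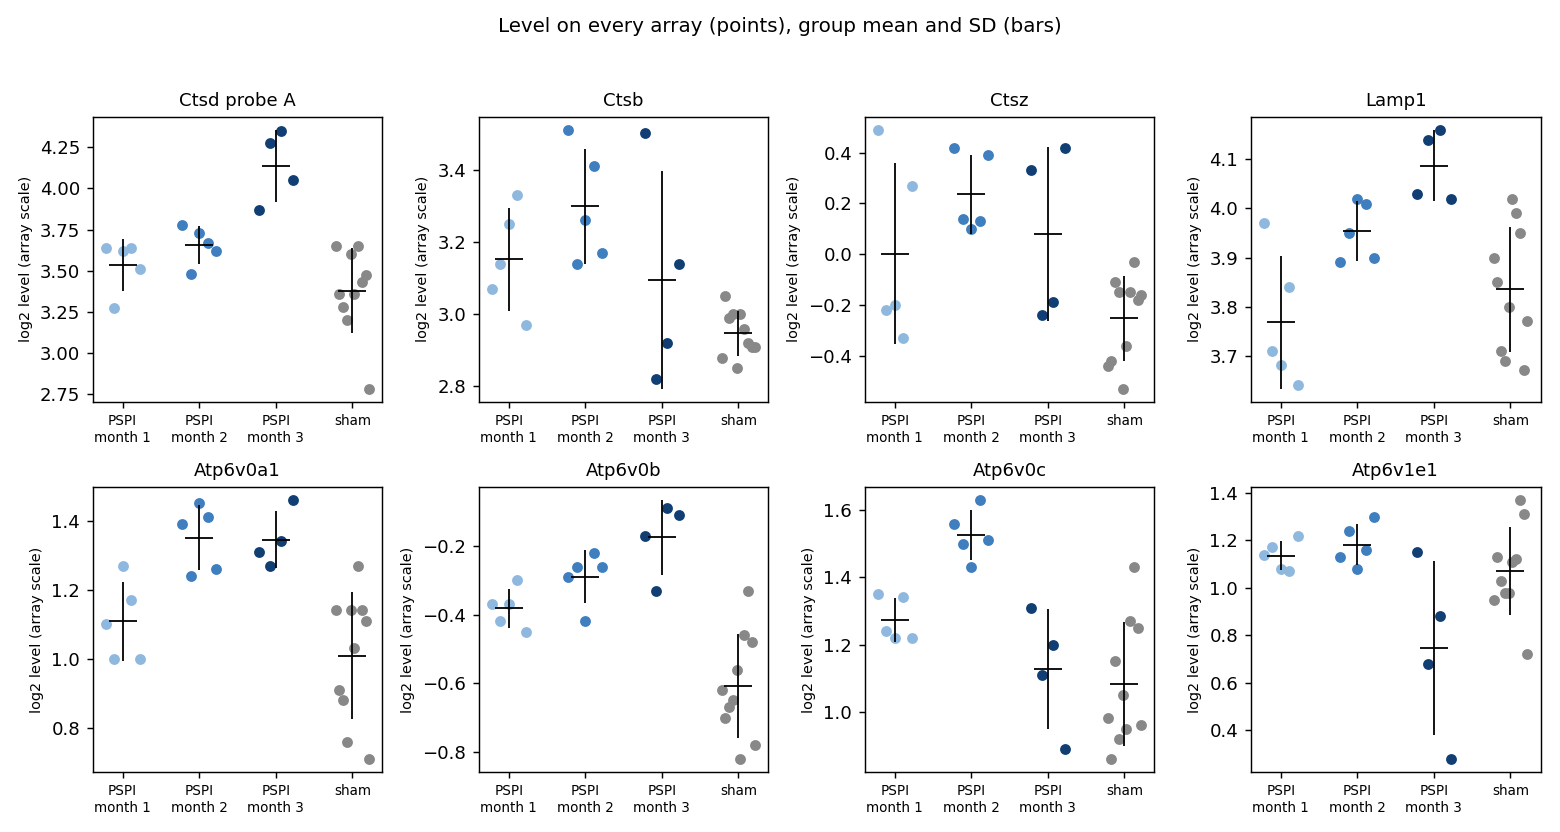
Log2 level on every array (points; signal minus the 75th percentile of the array) for 8 probes, by group, with the group mean and SD as bars (n = 5, 5, 4 and 10). Ctsd probe A, Atp6v0b and Lamp1 are the probes with every month 3 array above every sham, the last 2 by less than the 2 decimals printed.

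In the V0 sector, 3 of 8 probes were called higher over all months and 0 lower, against 12.6% and 10.9% of all probes. Atp6v0b, a membrane-ring subunit, was -0.45 to -0.30 in month 1 (median -0.37), -0.42 to -0.22 in month 2 (median -0.26) and -0.17, -0.33, -0.09 and -0.11 in month 3, against -0.82 to -0.33 in sham (median -0.63). Only Sham 8 reached the PSPI range, and 9 of 14 PSPI arrays lay above every sham. The change was 0.32 ± 0.06 over all months (1.25-fold, adjusted p = 0.000464), 0.32 ± 0.07 in month 2 (adjusted p = 0.0109) and 0.43 ± 0.08 in month 3 (adjusted p = 0.000302). For Atp6v0b it was 0.32 with the slide as a fixed block (adjusted p = 0.0199) and 0.31 on slide 3 alone (adjusted p = 0.443) over all months, while the month 2 value with the slide block was 0.31 and not called (adjusted p = 0.0905).

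Atp6v0a1, the membrane subunit that forms the proton path with the ring, was 1.00 to 1.27 in month 1, 1.24 to 1.45 in month 2 and 1.27 to 1.46 in month 3, against 0.71 to 1.27 in sham. Its change was 0.26 ± 0.07 over all months (adjusted p = 0.00782) and 0.34 in months 2 and 3 (month 2 adjusted p = 0.0153, lost without month 2 sample 1). With the slide as a fixed block the all-months change was 0.24 for Atp6v0a1 (adjusted p = 0.104) and 0.21 for Atp6v0c (adjusted p = 0.156), and neither was called. Their all-months calls held in 10 and 8 of 17 other settings. In month 2 the slide block gave 0.31 for Atp6v0a1 (adjusted p = 0.142) and 0.41 for Atp6v0c (adjusted p = 0.0598), again not called. Atp6v0c, the main ring subunit, was 1.22 to 1.35 in month 1, 1.43 to 1.63 in month 2 and 0.89 to 1.31 in month 3, against 0.86 to 1.43 in sham. Its change was 0.23 ± 0.07 over all months (adjusted p = 0.0175) and, in month 2, 0.44 ± 0.09 (adjusted p = 0.00463), and month 3 was lower than month 2 by -0.40 ± 0.11 (adjusted p = 0.0104), a call lost without month 3 sample 4. Atp6v0a4, an isoform of kidney and inner ear, was well above background on 2 of 5, 5 of 5 and 2 of 4 arrays in months 1, 2 and 3, against 3 of 10 in sham. It was kept only through month 2, where it was called higher, and no size is given for it. Atp6v0a2, Atp6v0d1, Atp6v0e and Atp6v0e2 were not called against sham, and Atp6v0e, a small membrane subunit, was lower in month 3 than in month 2 by -0.41 ± 0.14 (adjusted p = 0.0399), a call lost without any 1 of 6 arrays. Both probes of Atp6v0d2, an osteoclast and macrophage isoform, were not kept.

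In the V1 sector, 0 of 9 probes were called in either direction over all months, against 23.4% of all probes. Atp6v1a, the catalytic subunit, changed by 0.12 ± 0.11 and 0.01 ± 0.12 on its probes A and B, and Atp6v1h, a regulatory subunit, by 0.15 ± 0.16. Atp6v1e1, a stalk subunit, was 1.15, 0.68, 0.88 and 0.28 in month 3, against 0.72 to 1.37 in sham, with a change of -0.32 ± 0.12 (adjusted p = 0.0335). Without month 3 sample 2 or sample 4, Sham 8 or Sham 9 that call was lost, as it was for Atp6v1e1 with the slide as a fixed block (-0.28, adjusted p = 0.145). Atp6v1b2, the ATP-binding partner of the catalytic subunit, was lower in month 3 than in month 2 by -0.91 ± 0.25 (adjusted p = 0.0101). It was near background, being detected on 3 of 4 month 3 arrays and 9 of 10 shams, so it was kept only through month 1 or 2. Without month 3 sample 3 the call was lost. The call was also lost with normexp, the deposited table, the slide as a fixed block, slide 3 alone and only the groups compared. Whether the V0 and V1 sectors differ was not tested. V1 probes not kept were those of Atp6v1b1, Atp6v1c2, Atp6v1e2, Atp6v1g2 and Atp6v1g3.

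By month, 0 members were called in month 1, where the background was 0% and 2513 of 21061 probes had an unadjusted p under 0.05, as did 5 members. In month 2, 7 members were called higher and 0 lower, against 6.13% and 6.75% of all probes. The 7 include Atp6v0a4, which entered the test only through its detection in month 2, so its call is no support for that count. In month 3, 5 were called higher and 2 lower, against 21.6% and 18.3%. The month 3 split depended on scaling: with the 75th percentile over all probes it was 2 higher and 11 lower, and with quantile normalization 3 higher and 6 lower. Over all probes the shares were 14.6% higher and 30.8% lower with the first and 16.5% and 27.6% with the second, so the members' split moved with that of all probes. Those scalings moved the median of all probes by -0.16 and -0.11. The members with every month 3 array above every sham were Ctsd probe A, Atp6v0b and Lamp1, against 7.3% of all probes, and 0 lay wholly below, against 5.6%.

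Between months, 0 members differed between month 2 and month 1, against 0.0095% of all probes (9 members had an unadjusted p under 0.05). From month 2 to month 3, 1 was higher and 5 were lower, against 12.9% and 9.64% of all probes. The probe that was higher was Ctsd probe A, and the lower ones were Ctsd probe B, Atp6v0c, Atp6v1b2, Atp6v1e1 and Atp6v0e. Month 3 set against month 1 gave 3 higher (Ctsd probe A 0.60, Ctsa probe A 0.37 and Lamp1 0.32) and 4 lower (Atp6v1b2 -0.83, Ctsf -0.48, Atp6v1e1 -0.39 and Lamp3 -0.35), against 14.9% and 14.9%. Both lower counts include Atp6v1b2, which entered the test only through month 1 or 2, so its calls are no support for them. With the slide as a fixed block 0 members were called between months 3 and 2.

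Other lysosomal genes were read over all months, by the brightest kept probe of each gene. Over all probes 12.6% were higher and 10.9% lower. When 1 probe per gene was tested, 10.9% of 12610 genes were higher and 13.7% lower. Of 36 hydrolases kept, 10 were higher and 1 lower, led by Lipa, the acid lipase (0.53 ± 0.08, adjusted p = 7.56e-05), Naglu, which degrades heparan sulfate (0.38 ± 0.07, adjusted p = 0.000738) and Fuca1, a fucosidase (0.21 ± 0.05, adjusted p = 0.00627), while Aga fell (-0.23 ± 0.08, adjusted p = 0.0389). Of 25 membrane and transport genes, 5 were higher, among them Clcn7, the chloride-proton exchanger (0.28 ± 0.07, adjusted p = 0.00662), and 1 lower, Mcoln1, a calcium channel of the lysosome (-0.18 ± 0.05, adjusted p = 0.00979). Of 5 pump genes not named Atp6v, Tcirg1, the a3 isoform of the V0 sector, was higher (0.36 ± 0.09, adjusted p = 0.00805), as was Rnasek (0.26 ± 0.07, adjusted p = 0.0104). Atp6ap1 and Atp6ap2, accessory subunits, changed by 0.20 (adjusted p = 0.189) and 0.09 (adjusted p = 0.634).

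Of 17 genes of the TFEB family and the lysosomal anchor of the growth kinase mTORC1, 0 were higher and 4 lower: Mitf, a relative of TFEB (-0.67 ± 0.11, adjusted p = 0.000186), Lamtor5, Flcn and Lamtor2. Tfeb itself changed by 0.26 (adjusted p = 0.0598). Autophagy genes split evenly, with 3 higher and 3 lower of 33. The shares beside these lists were again 12.6% higher and 10.9% lower over all probes, and 10.9% and 13.7% with 1 probe per gene. Of 7 cathepsin inhibitors kept, 5 were higher and 0 lower, led by the serpin Serpina3n (1.08 ± 0.18, adjusted p = 0.000327), with Cst3, cystatin C, at 0.24 ± 0.08 (adjusted p = 0.037). Serpina3g is among the 5 but was above background on only 9 of 24 arrays, and no size is given for it. It was therefore kept only through a PSPI group, so its call is no support for that count. It also enters the list median below. Whether these inhibitors act on the cathepsins read here was not tested. The list medians were 0.14 for hydrolases, 0.04 for membrane and transport genes, -0.04 for the TFEB list, 0.05 for autophagy and 0.51 for inhibitors, against 0.02 over all probes. With 1 probe per gene, which is the like comparison, the median over all genes was -0.01.

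**Figure D4:**
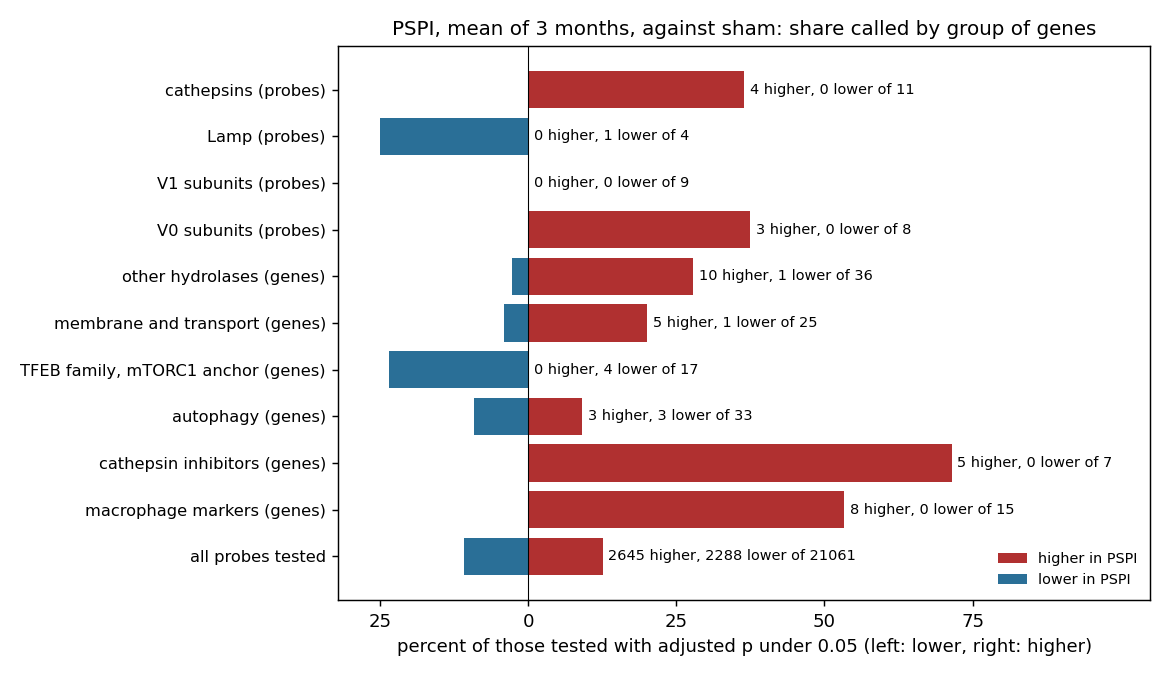
Percent of probes or genes called higher (right) and lower (left) over all months after PSPI, by group, with counts. The bottom bar is the background over all 21061 probes, 12.6% higher and 10.9% lower. Bars of genes rest on 1 probe per gene, and with 1 probe per gene the background was 10.9% higher and 13.7% lower.

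Markers of other cell types were read in the same fit. Over all months 12.6% of all probes were higher and 10.9% lower. Of 15 macrophage and monocyte markers kept out of 18, 8 were higher over all months and 0 lower, among them C1qa (0.53 ± 0.11, adjusted p = 0.00231), Mpeg1 (0.52 ± 0.12, adjusted p = 0.00392) and Ptprc (0.46 ± 0.10, adjusted p = 0.00335), while Cd163 was not well above background on any array. Not all of the 15 rose: their changes ran from -0.56 to 0.56. The mean level of these 15 markers per array, centred on each gene, was 0.09 to 0.15 in month 1, -0.23 to 0.33 in month 2 and 0.02 to 0.34 in month 3, against -0.35 to 0.09 in sham. All 5 month 1 arrays lay above every sham in this mean, but narrowly, the lowest at 0.090 and the highest sham at 0.087. Months 2 and 3 overlapped with sham. Of 4 neutrophil markers kept out of 12, 3 were higher, with S100a8 at 2.53 ± 0.33 (adjusted p = 2.17e-05, above background on 19 of 24 arrays). That size rests partly on arrays where S100a8 was not well above background. Mpo, Ngp, Mmp8 and Cxcr2 were not well above background on any array. In each case 1 marker was higher and 0 lower among 3 of mast cells, 5 of T and NK cells, 2 of osteoclasts, 9 of fibroblasts and 7 of endothelium kept, and 0 were called among 11 ventricular, 5 atrial and 2 erythroid markers kept. In month 3 alone, 21.6% of all probes were higher than in sham and 18.3% lower. Beside that, 2 of 3 mast cell, 2 of 5 T and NK cell and 3 of 7 endothelial markers were higher. The 9 fibroblast markers split into 2 higher and 2 lower, and the 11 ventricular markers into 1 higher and 2 lower. Of 5 atrial markers, 3 were lower in month 3 than in month 1 (list median -4.56), against 14.9% of all probes. The part of these cells in the changes of cathepsins and pump subunits was not tested.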

How the data were processed

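Each of 24 right ventricle RNAs was hybridised to its own 1-colour Agilent array. Per the file headers, Feature Extraction 10.7.3.1 made the deposited intensity values, with mm9 positions, and no step between arrays is recorded. The deposited table of the series holds intensity values equal to the scanner files' net signal. Control and outlier spots were dropped and repeated spots averaged. The tests used the processed intensity of the deposited scanner files, and the deposited table only as an alternative. After log2, the 75th percentile was subtracted array by array, taken over 16979 probes detected on all arrays. Per array, 36.1% to 56.1% of probes were above background, which limits precision for dim probes. The 56.1% was month 3 sample 4, which also had the highest median processed signal, 34.4. Several calls above, also of bright probes, were lost without that sample.

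Groups came from the titles. Probes were tested with limma 3.58.1 (R 4.3.3) in 1 model of 4 group means without covariates, two-sided, Benjamini-Hochberg over 21061 probes. All months is the mean of the 3 month changes, and each month was set against all 10 shams. The fit was tested on simulated data. Of 3 slides, the first carried 7 shams with 1 PSPI sample, the second PSPI samples only, and slide 3 carried 3 shams with 5 PSPI samples. Same-numbered samples did not deviate together (mean correlation per number -0.06 to 0.08), so numbers were not taken as pairs. Named were the members past the threshold in any comparison, a fixed set of well-known members, and up to 4 genes of each other list with the smallest p. The members and lists were chosen with earlier results of these data known. Gene names came from the array and a RefSeq table of GRCm38.p6, as did promoters; exon annotation on mm9 was not used here. Alternatives covered scaling, background correction, filters, slide, replicate block and single arrays.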

Additional observations from a re-analysis of the deposited data

Results flagged for a closer look

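Single arrays stood far from the others of their group for 6 of 128 combinations of probe and group, and chance gives about 1 in 20. Atp6v0e was 1.34 in month 3 sample 1, Ctsa probe A was 2.82 in month 3 sample 4, and Atp6v1b2 was -3.99 in month 1 sample 4. Among shams, Atp6v1c1 was -1.76 in Sham 1, Ctsl was 1.84 in Sham 5 and Ctsd probe A was 2.78 in Sham 10.

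The change after PSPI differed between months for 13 comparisons, by the fit of the difference itself. Of 32 probes, 6 (18.8%) were called between months 3 and 2, against 22.6% of all probes. Between months 3 and 1 it was 7 (21.9%), against 29.8%, so neither share was above that of all probes. Month 3 minus month 2 was 0.48 for Ctsd probe A and -0.79 for Ctsd probe B, opposite directions for probes of 1 gene. It was -0.40 for Atp6v0c, -0.41 for Atp6v0e, -0.91 for Atp6v1b2 and -0.43 for Atp6v1e1. Month 3 minus month 1 was 0.60 for Ctsd probe A, 0.37 for Ctsa probe A and 0.32 for Lamp1. It was -0.83 for Atp6v1b2, -0.39 for Atp6v1e1, -0.48 for Ctsf and -0.35 for Lamp3. Their adjusted p ran from 0.00368 to 0.0399. Atp6v1b2 was near background and kept only through month 1 or 2.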

How the results depend on the processing

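Of 2382 alternative values for 59 member results, 2061 kept direction and side of the threshold, 253 lost the call, 13 gained it, 55 uncalled values changed sign and 0 called values reversed. Counts of called members moved more, and the cause was not tested. All months (7 higher, 1 lower): without a filter 3 and 0, with the 75th percentile over all probes 3 and 2, with slide as a fixed block 4 and 0, on slide 3 alone 0 and 0, with close arrays averaged 2 and 0; the lower count was 2 with normexp and with the deposited table and 0 with slide as a random block. Month 2 (7 higher, 0 lower): without a filter 2 higher, slide block 3, slide 3 alone 0, close arrays averaged, which merged month 2 samples 1 and 5, 0. Month 3 (5 higher, 2 lower): 75th percentile over all probes 2 and 11, quantile 3 and 6, slide 3 alone 1 and 0, close arrays averaged 3 and 0, and 1 lower without a filter, with the slide block and with only the groups compared. Month 3 against month 2 (6 called): 3 without a filter, with normexp, with the deposited table and with only the groups compared, 10 with the percentile over all probes, 0 with the slide block and on slide 3, 1 with close arrays averaged. Month 3 against month 1 (7 called): 2 without a filter, 4 with normexp and the deposited table, 3 with the slide block and with only the groups compared, 0 on slide 3.

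Settings chosen after seeing the data gave, without Sham 3, 4 and 10, 4 higher and 0 lower over all months and 3 higher in month 2; without month 3, 0 lower over all months; with only the closest arrays averaged, 4 and 0 over all months, 3 higher in month 2, and 3 and 0 in month 3. Leaving out 1 array gave 6 to 7 higher and 0 to 1 lower over all months, 3 to 7 and 0 to 1 in month 2, 4 to 6 and 1 to 7 in month 3, 3 to 12 for month 3 against month 2 and 3 to 11 for month 3 against month 1. Month 2 sample 1 gave the 3 higher in month 2 and Sham 8 the 1 lower. Without month 3 sample 1 the lower count in month 3 was 7, without month 2 sample 4 it was 4, and without month 3 sample 2 or 4 it was 1; month 3 sample 1 also gave the 12 and 11, sample 4 the 3 in both, and sample 3 the other 3 against month 2. With a replicate block, which has no basis in the labels, 8 were higher and 1 lower over all months, 10 and 1 in month 2, and 5 and 2 in month 3. The share of all calls that were higher was 53.6% over all months, 34.0% when all probes set the percentile, 39.4% under quantile and 70.9% with normexp.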
